A study of Mus musculus with 24 samples.

Results

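The genes described here are 38 genes of the cell cycle, 14 that act in S phase, when DNA is copied, and 24 that act in mitosis, when chromosomes are parted. They were chosen by name from a table of 17541 genes measured in fat of the groin that lies under the skin (inguinal white adipose tissue), and all 38 were among the 15939 genes that passed the filter on low counts. The tissue came from 24 wild-type C57BL/6J mice, each sequenced as its own library, and the series title names a high-fat diet for all of them. The groups were 5 Aged BAM15 and 6 Aged CTRL mice of 92 weeks, and 6 Young BAM15 and 7 Young CTRL mice of 16 weeks, with Young CTRL as the reference of the series. BAM15 is a mitochondrial uncoupler, so that fuel is burnt without making ATP; its dose and the sex of the mice are not in the labels. Transcripts were counted from their 3' ends, which gave 8.62 to 21.9 M counts per library. Each of the 38 genes held between 309 counts in all, for Bub1, and 9552, for Mcm7.

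A dividing cell first licenses its replication origins by loading the MCM helicase, with the help of Cdc6 and Cdt1, then fires them with Cdc45, copies DNA behind the Pcna clamp, and draws on nucleotides made by ribonucleotide reductase and thymidylate synthase. Later it builds cyclin A and cyclin B complexes with Cdk1, and the factor Foxm1 raises a set of mitosis genes whose products condense chromosomes, attach them to the spindle, check that attachment and divide the cell. Mature fat cells have largely left the cell cycle, so in fat tissue these transcripts are thought to come mainly from progenitors, macrophages, lymphocytes and vessel cells. In whole tissue, fewer dividing cells and less RNA per dividing cell cannot be told apart.

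The 2 classes differ in the sequence before their start sites. Promoter windows of 300 bases (250 before to 50 after the start, RefSeq, GRCm38.p6) were at hand for 31 of the 38 genes, as 33 windows, since Mcm7 and Prc1 have 2 each. They were searched on both strands for the cell cycle homology region (CHR, spelled TTTGAA and, in its variant, TTCGAA), which in mammals is bound by the MuvB complex that governs mitosis genes, for the CCAAT box, which is bound by NF-Y, and for E2F elements, known from replication genes. An E2F element was counted where the window held the letters TTCCCGC, the letters TTCGCGC, the letters TTGCCGC or the letters TTGGCGC. A CHR was in 16 of 20 mitosis windows (80%), in 3 of 13 S phase windows (23.1%) and in 19.2% of all 32851 windows of the table. A CCAAT box was in 85% of mitosis windows, 76.9% of S phase windows and 37.4% of all. An E2F element was in 15% of mitosis windows, 69.2% of S phase windows and 9.57% of all. Both a CHR and a CCAAT box were in 75% of mitosis windows, 23.1% of S phase windows and 7.52% of all. These matches are letters in a window, and binding was not measured.

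The windows of 7 genes on which the results below turn follow, 5' to 3', with every matched motif in capitals on whichever strand it was found. Cenpf (chr1:189688037-189688336, minus strand), Prc1 (chr7:80294201-80294500, plus strand), Top2a (chr11:99024140-99024439, minus strand), Kif23 (chr9:61946750-61947049, minus strand) and Nusap1 (chr2:119618048-119618347, plus strand) are the mitosis genes called below. Cdk1 (chr10:69352863-69353162, minus strand) is shown as the mitosis gene with a pattern of its own, and Mcm5 (chr8:75109259-75109558, plus strand) as an S phase gene for contrast. Cenpf, Prc1 and Kif23 carry a CHR within 5 bases of the start in the windows shown, Top2a carries 4 CHR and 6 CCAAT matches, and Cdk1 carries motifs of all 3 kinds. Mcm5 has E2F and CCAAT matches but no CHR. Nusap1 has none of the motifs.
Cenpf: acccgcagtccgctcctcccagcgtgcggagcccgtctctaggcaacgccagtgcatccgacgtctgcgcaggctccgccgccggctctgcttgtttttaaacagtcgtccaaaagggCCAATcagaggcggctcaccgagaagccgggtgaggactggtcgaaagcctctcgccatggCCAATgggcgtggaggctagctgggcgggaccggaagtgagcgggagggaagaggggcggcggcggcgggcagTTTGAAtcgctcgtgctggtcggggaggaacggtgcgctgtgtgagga
Prc1: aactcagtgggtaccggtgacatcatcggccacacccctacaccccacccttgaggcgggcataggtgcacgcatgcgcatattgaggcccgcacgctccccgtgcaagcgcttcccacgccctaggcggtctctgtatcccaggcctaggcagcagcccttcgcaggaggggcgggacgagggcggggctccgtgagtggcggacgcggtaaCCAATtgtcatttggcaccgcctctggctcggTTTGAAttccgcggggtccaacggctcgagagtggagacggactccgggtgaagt
Top2a: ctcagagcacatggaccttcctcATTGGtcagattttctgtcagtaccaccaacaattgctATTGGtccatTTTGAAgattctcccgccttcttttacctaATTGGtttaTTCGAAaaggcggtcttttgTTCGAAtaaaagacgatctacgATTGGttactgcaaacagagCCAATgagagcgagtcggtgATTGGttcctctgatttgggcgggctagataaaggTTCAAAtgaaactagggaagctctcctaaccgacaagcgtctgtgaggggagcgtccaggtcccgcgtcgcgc
Kif23: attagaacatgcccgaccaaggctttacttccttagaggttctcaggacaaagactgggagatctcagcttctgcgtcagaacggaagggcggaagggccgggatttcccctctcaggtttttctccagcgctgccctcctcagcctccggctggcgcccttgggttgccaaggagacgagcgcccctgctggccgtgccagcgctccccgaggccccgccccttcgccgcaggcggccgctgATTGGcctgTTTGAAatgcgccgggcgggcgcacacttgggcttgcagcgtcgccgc
Nusap1: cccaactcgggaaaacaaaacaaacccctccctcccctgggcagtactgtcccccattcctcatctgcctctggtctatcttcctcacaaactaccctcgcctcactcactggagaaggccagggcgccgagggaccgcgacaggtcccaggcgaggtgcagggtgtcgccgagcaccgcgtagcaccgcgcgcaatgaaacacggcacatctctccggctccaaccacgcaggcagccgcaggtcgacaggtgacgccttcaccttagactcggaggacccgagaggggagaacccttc
Cdk1: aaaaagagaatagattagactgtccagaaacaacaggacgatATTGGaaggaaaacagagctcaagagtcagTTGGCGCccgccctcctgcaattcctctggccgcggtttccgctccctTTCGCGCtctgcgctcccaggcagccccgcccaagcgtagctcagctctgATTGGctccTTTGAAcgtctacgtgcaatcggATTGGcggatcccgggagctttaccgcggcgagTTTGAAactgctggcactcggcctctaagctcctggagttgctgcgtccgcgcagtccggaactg
Mcm5: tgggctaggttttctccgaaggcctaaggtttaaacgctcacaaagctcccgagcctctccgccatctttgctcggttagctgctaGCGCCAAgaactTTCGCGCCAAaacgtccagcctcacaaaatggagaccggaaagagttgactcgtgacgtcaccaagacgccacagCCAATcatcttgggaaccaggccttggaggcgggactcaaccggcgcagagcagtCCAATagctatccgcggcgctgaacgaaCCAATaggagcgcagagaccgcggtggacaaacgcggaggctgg

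Several libraries stood apart, and medians without those low in mt-Rnr2 or high in Krt14 stand beside each comparison of groups they belong to. In 4 libraries, Aged BAM15 2, Aged BAM15 5, Aged CTRL 2 and Young CTRL 4, the mitochondrial transcript mt-Rnr2 made up less than 0.5% of counts. Members without a single count numbered 3 in Aged BAM15 2, 6 in Aged BAM15 5, 2 in Aged BAM15 4, 4 in Aged CTRL 2, 1 each in Young BAM15 1, 3 and 4, and 0 in the other libraries. Young CTRL 1 and Young CTRL 7 held 840 and 89.99 CPM (counts per M counts, scaled by the normalisation factor) of the skin keratin Krt14, against at most 3.28 CPM elsewhere. All 8 adipocyte markers looked for were found in every group, with a summed level of 8031 to 27778 CPM per library, as the tissue label says. In some libraries, markers of skeletal muscle outweighed them. The muscle sum was 64325 CPM in Young BAM15 3, where adipocyte markers came to 13978. For Young CTRL 7 it was 56699 against 12168, and for Aged CTRL 1 it was 21668.5 against 19045.2. No fit left these libraries out together, and the part of muscle in the values below was not tested.

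The mitosis genes were lowest in treated aged mice and highest in untreated young mice, while the S phase genes overlapped between all groups. The 24 mitosis genes summed to 73.9, 59.5, 56.1, 79.1 and 35.4 CPM in the 5 Aged BAM15 libraries. They summed to 70.5 to 141 CPM in Aged CTRL (median 123), to 80.5 to 160 CPM in Young BAM15 (median 145) and to 117 to 247 CPM in Young CTRL (median 171). Every Aged BAM15 library lay below every Young BAM15 and Young CTRL library, and only Aged CTRL 1, at 70.5 CPM, fell within the Aged BAM15 range of this sum. A sum leans on the most abundant genes. By the mean log2 CPM of the mitosis genes, Aged BAM15 ran from -0.28 to 1.25. Aged CTRL 2, at 0.95, then fell within that range, and Aged CTRL 1, at 1.33, lay above it. Every young library again lay above that range, the lowest at 1.35 in Young BAM15 1. The 14 S phase genes summed to 138 ± 22.9 CPM (SD) in the 5 Aged BAM15 mice, 144 ± 33.2 CPM (SD) in the 6 Aged CTRL mice, 188 ± 39.5 CPM (SD) in the 6 Young BAM15 mice and 171 ± 33.1 CPM (SD) in the 7 Young CTRL mice. Their ranges, from 102 to 155 CPM in Aged BAM15 and from 142 to 235 CPM in Young CTRL, met at 142 to 155 CPM. The plot of summed expression shows both classes by library.

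**Figure D1:**
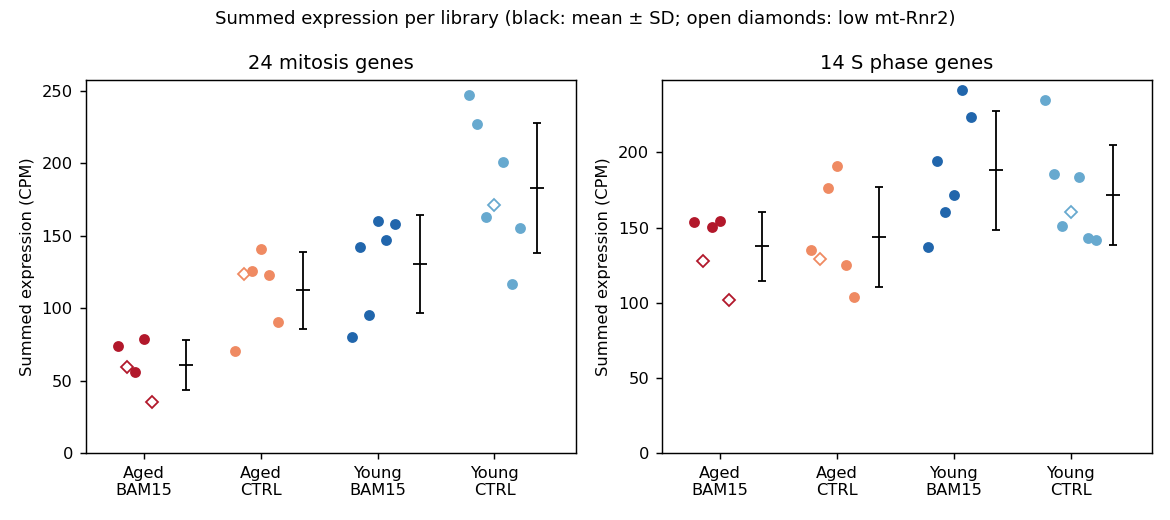
Summed expression (CPM, from 0) of the 24 mitosis genes and the 14 S phase genes in each library, with 1 point per mouse, open diamonds for the 4 libraries low in mt-Rnr2, and black bars for the mean ± SD of a group. The 5 Aged BAM15 libraries sit between 35.4 and 79.1 CPM for mitosis genes, below all 13 young libraries, and overlap the other groups for S phase genes.

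Treated aged mice were first set against untreated young mice, the pair that differs in both age and treatment. In Aged BAM15 relative to Young CTRL, 5 of the 24 mitosis genes fell (adjusted p under 0.05, edgeR) and 0 of the 14 S phase genes were called, where 1.29% of all tested genes were called and 0.514% were called lower. All 24 mitosis genes had a negative log2 change, with a median of -1.57 against -0.01 over all genes. At an unadjusted p under 0.05, 21 of the 24 mitosis genes were lower, where 7.85% of all genes were. Among S phase genes 3 of 14 were lower at that level, 11 of 14 changes were negative, and the median log2 change was -0.40.

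Cenpf, which encodes a large protein of the outer kinetochore, the structure that holds a chromosome to the spindle, changed most clearly. Cenpf (chromosome 1, 189640606 to 189688086, GRCm38) stood at 2.14, 1.79, 2.26, 2.91 and 1.44 CPM in Aged BAM15. It ranged from 0.676 to 7.21 CPM in Aged CTRL (median 4.77), from 4.74 to 11.3 CPM in Young BAM15 (median 6.46) and from 5.47 to 17.5 CPM in Young CTRL (median 15.1). No Aged BAM15 value reached the lowest value of either young group. Its log2 change between Aged BAM15 and Young CTRL was -2.61 ± 0.46 (SE, adjusted p = 0.0053).

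Prc1, Kif23 and Nusap1 encode proteins of the spindle and its midzone, where the cell is cut in 2. Prc1 (chromosome 7, 80294450 to 80316259), which bundles midzone microtubules, stood at 3.05, 0.826, 2.20, 2.33 and 0.576 CPM in Aged BAM15. It ranged from 0.260 to 8.20 CPM in Aged CTRL (median 3.97), from 2.25 to 8.49 CPM in Young BAM15 (median 4.19) and from 6.42 to 14.1 CPM in Young CTRL (median 9.95). Aged BAM15 and Young CTRL did not overlap, and the log2 change was -2.47 ± 0.56 (SE, adjusted p = 0.029). Kif23 (chromosome 9, 61915905 to 61946774), the motor of the centralspindlin complex, stood at 1.69, 0.688, 3.04, 6.99 and 2.59 CPM in Aged BAM15. It ranged from 3.31 to 10.1 CPM in Aged CTRL (median 6.50), from 4.13 to 11.3 CPM in Young BAM15 (median 8.61) and from 6.62 to 12.5 CPM in Young CTRL (median 8.43). Aged BAM15 4 alone reached the Young CTRL range, and the log2 change was -1.65 ± 0.41 (SE, adjusted p = 0.046). Nusap1 (chromosome 2, 119618298 to 119651244), which binds and bundles spindle microtubules, stood at 3.44, 2.75, 2.08, 5.73 and 2.19 CPM in Aged BAM15. It ranged from 2.04 to 6.95 CPM in Aged CTRL (median 4.72), from 4.01 to 8.80 CPM in Young BAM15 (median 5.10) and from 5.90 to 10.4 CPM in Young CTRL (median 8.53). The highest Aged BAM15 value lay just under the lowest Young CTRL value, and the log2 change was -1.31 ± 0.33 (SE, adjusted p = 0.046). The annotation has Rccd1 overlapping Prc1 and Oip5 overlapping Nusap1 on the opposite strand, and whether strand was used in counting is not given in the sources used here.

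Top2a and Mki67 act on the chromosomes themselves. Top2a (chromosome 11, 98992943 to 99024189), the topoisomerase that untangles sister DNA, stood at 8.76, 11.98, 6.55, 16.2 and 2.42 CPM in Aged BAM15. It ranged from 6.35 to 40.8 CPM in Aged CTRL (median 13.8), from 12.4 to 31.3 CPM in Young BAM15 (median 27.9) and from 22.0 to 44.9 CPM in Young CTRL (median 30.6). Aged BAM15 and Young CTRL did not overlap, and the log2 change was -1.79 ± 0.44 (SE, adjusted p = 0.043). Mki67 (chromosome 7, 135689784 to 135716361), which coats mitotic chromosomes and is the common marker of cycling cells, stood at 3.63, 3.79, 3.99, 3.98 and 0.980 CPM in Aged BAM15. It ranged from 0.520 to 5.90 CPM in Aged CTRL (median 3.60), from 5.55 to 12.5 CPM in Young BAM15 (median 9.51) and from 3.30 to 17.9 CPM in Young CTRL (median 10.9). Its values in Young CTRL spread widely enough to overlap Aged BAM15, and the log2 change of -1.71 ± 0.48 did not pass the test (SE, adjusted p = 0.072). The plot of mitosis genes by library shows these 6 genes beside Cdk1 and Kif20a.

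**Figure D2:**
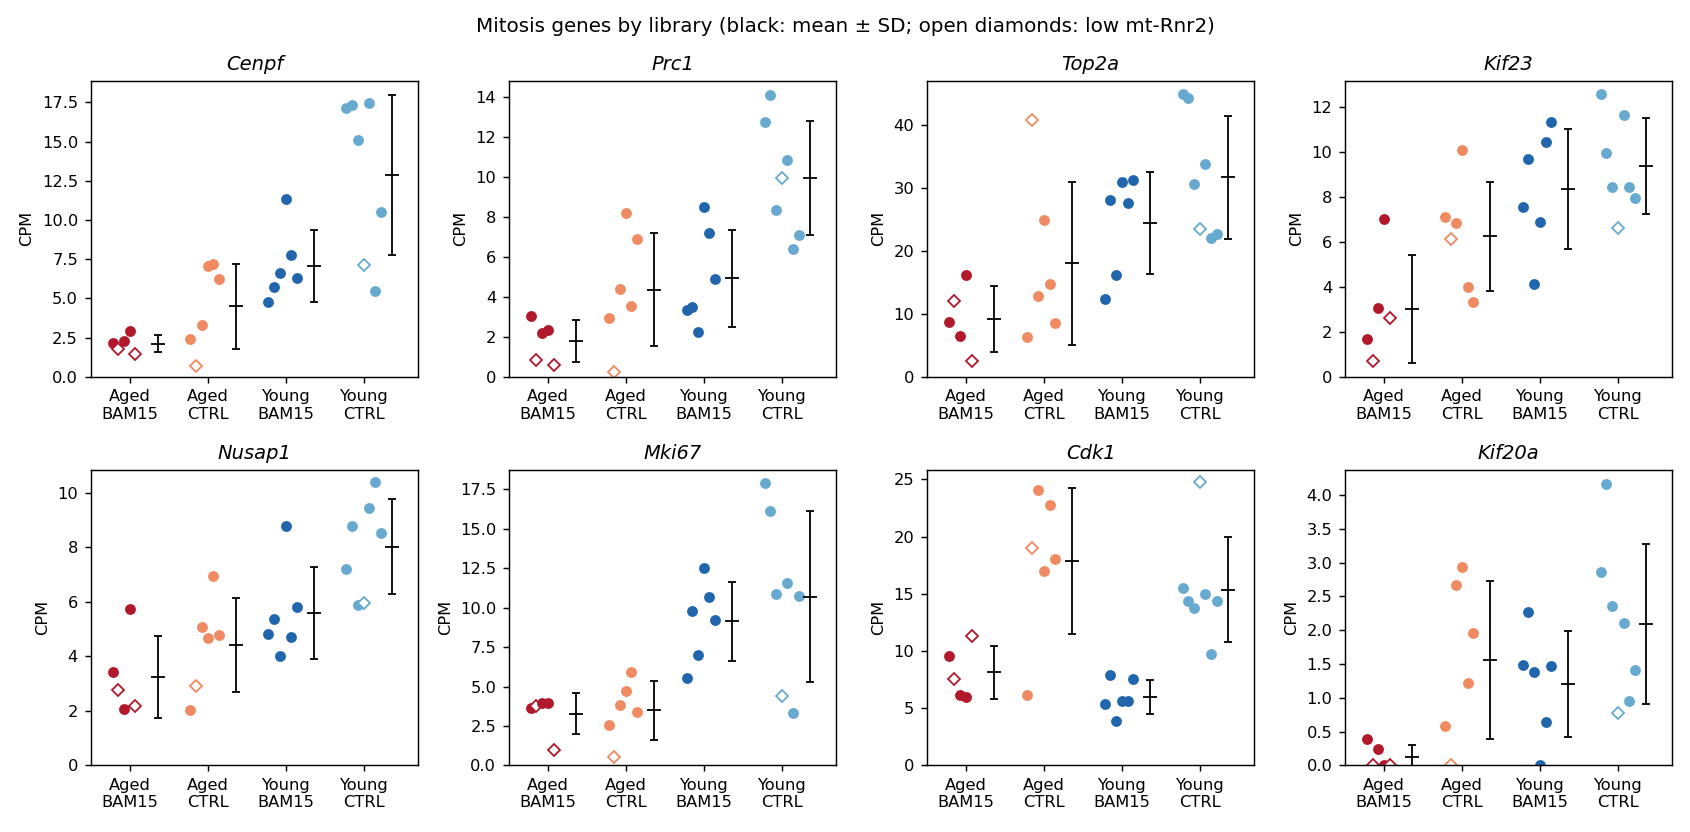
Expression (CPM, from 0) of 8 mitosis genes in each library of the 4 groups, with 1 point per mouse, open diamonds for libraries low in mt-Rnr2, and black bars for the mean ± SD, cut at 0. Cenpf, Prc1, Top2a and Nusap1 do not overlap between Aged BAM15 and Young CTRL, while all Cdk1 points of Young BAM15 lie below those of Young CTRL, and in aged mice only Aged CTRL 1 falls within the Aged BAM15 range.

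Without the 4 libraries low in mt-Rnr2, which include 2 of the 5 Aged BAM15 mice, 2 members were called in Aged BAM15 relative to Young CTRL, Cenpf and Prc1. The mitosis median was then -1.37 and the S phase median -0.35, and 105 of 16553 genes were called. Without the 2 Krt14 libraries, 1 member was called, Cenpf, with 86 of 15783 genes, and the medians were -1.43 and -0.40. With all libraries, DESeq2 called 14 members in this comparison, with 4.75% of all genes, and limma-voom called 19, with 10.2% of all genes.

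The other mitosis genes lay on the same side in this comparison without passing the test. Among the regulators of entry into mitosis, the log2 change was -2.12 ± 0.63 for Ccna2 (SE), the A cyclin, -1.88 ± 0.53 for Ccnb2 and -1.25 ± 0.56 for Ccnb1, the B cyclins, -1.23 ± 0.47 for Foxm1 and -0.92 ± 0.29 for Cdk1. Among the mitotic kinases and the chromosomal passengers they work with, the change ran from -1.12 for Plk1 to -1.71 for Aurkb, with Aurka at -1.29, Birc5, or survivin, at -1.31, and Tpx2, which activates Aurka, at -1.55. None of these 10 genes had an adjusted p below 0.0658, the value of Birc5. In the spindle checkpoint and the anaphase-promoting complex it ran from -1.21 for the checkpoint kinase Bub1 to -1.99 for the activator Cdc20, with Bub1b at -1.60 and the ubiquitin carrier Ube2c at -1.43. At the kinetochore, Cenpe stood at -1.25 and Ndc80 at -1.11, and among the motors Kif11, which parts the spindle poles, stood at -2.04. Kif20a, a motor needed for the final cut, had the lowest fitted value, -3.92 ± 1.10 (SE, adjusted p = 0.071), from 6, 0, 4, 0 and 0 counts in Aged BAM15 against 11 to 56 counts in Young CTRL.

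S phase genes lay mostly below 0 in the same comparison, and none passed the test. Rrm2, the regulated subunit of ribonucleotide reductase, stood at 3.44, 1.86, 2.14, 1.94 and 0.231 CPM in Aged BAM15 and ranged from 4.51 to 17.6 CPM in Young CTRL (median 5.98). The groups did not overlap, and the log2 change was -1.88 ± 0.59 (SE, adjusted p = 0.10). Rrm1, the other subunit, averaged 10.9 ± 4.14 CPM (SD) in the 5 Aged BAM15 mice and 17.1 ± 3.17 CPM (SD) in the 7 Young CTRL mice, and the log2 change was -0.65 ± 0.26 (SE, adjusted p = 0.21). Pcna, the sliding clamp of replication, averaged 21.3 ± 6.62 CPM (SD) in the 5 Aged BAM15 mice and 22.8 ± 4.45 CPM (SD) in the 7 Young CTRL mice, and its change of -0.09 ± 0.21 (SE) was small beside its error. The helicase subunits ran from -0.73 for Mcm2 and -0.72 ± 0.41 for Mcm5 (SE, adjusted p = 0.39), through -0.42 for Mcm7 and -0.38 for Mcm6, to 0.12 for Mcm3 and 0.24 for Mcm4. The licensing factors Cdc6 and Cdt1 stood at -0.03 ± 0.87 and 0.24 ± 0.47 (SE), the origin-firing factor Cdc45 at -0.36, thymidylate synthase (Tyms) at -0.72 and cyclin E2 (Ccne2), which drives entry into S phase, at -0.71. In the heat map of the members, the cells past the lower end of the scale number 10 in Aged BAM15 5, 4 in Aged BAM15 2 and 7 in Aged CTRL 2, which are all low in mt-Rnr2, and 0 in the other libraries.

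**Figure D3:**
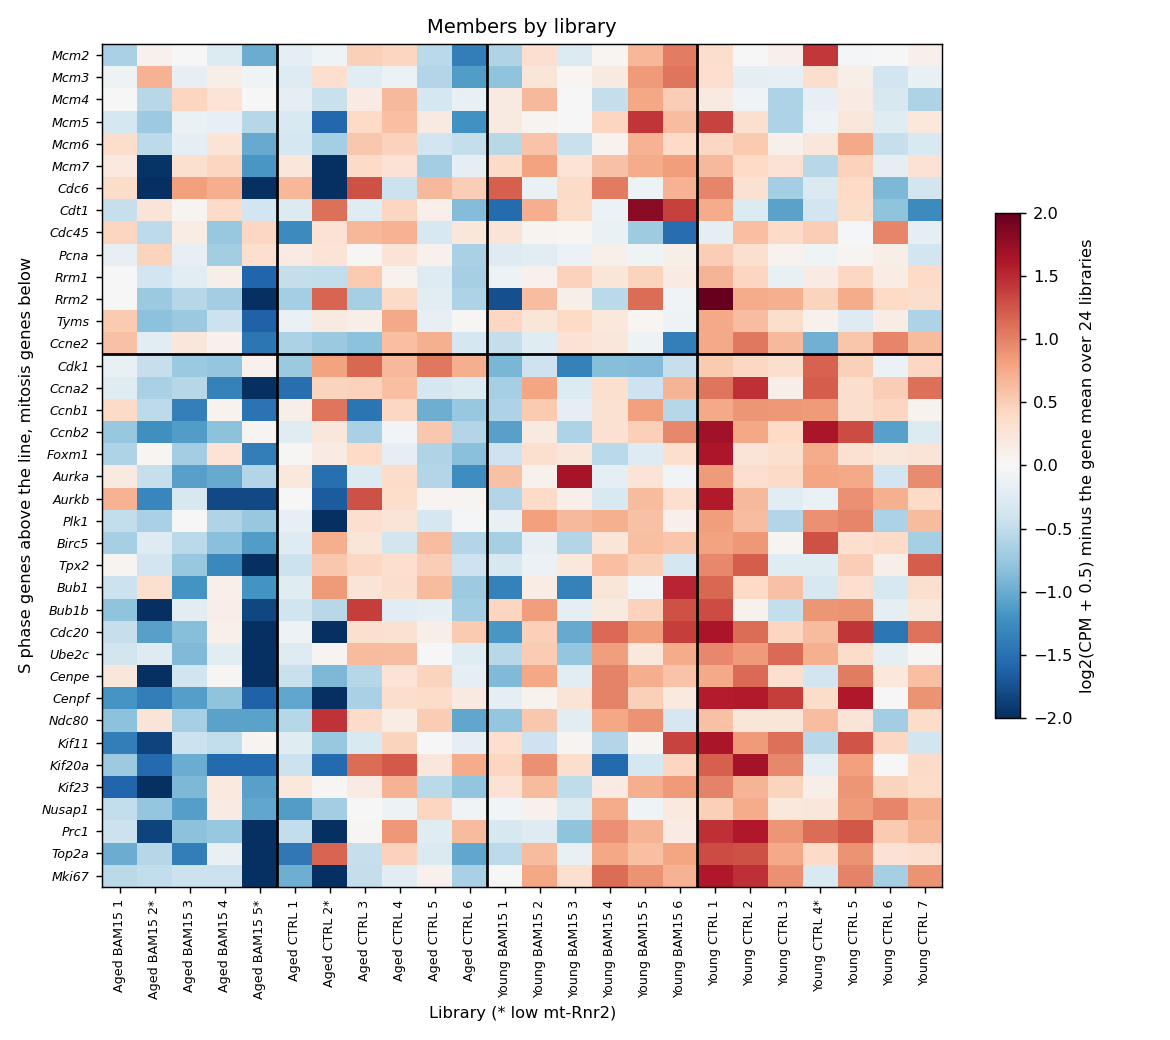
Log2(CPM + 0.5) of the 38 members minus the mean of each gene over the 24 libraries (colour scale, red above and blue below the gene mean, cut at 2), with S phase genes above the horizontal line and mitosis genes below. Mitosis rows are mostly blue in the 5 Aged BAM15 columns and mostly red in the 7 Young CTRL columns, and asterisks mark the 4 libraries low in mt-Rnr2.

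The effect of BAM15 was compared within each age, and no member was called in either. In aged mice, 0 of the 38 members and 0 of 15939 genes (0%) were called with edgeR in Aged BAM15 relative to Aged CTRL, while DESeq2 called Cdk1 and Kif20a, with 0.659% of all genes, and limma-voom called Cdk1, with 6.05% of all genes. All 24 mitosis genes had negative changes, with a median log2 change of -0.97 against 0.02 over all genes, and 9 were lower at an unadjusted p under 0.05, where 4.59% of all genes were. The S phase median was -0.17, with 11 of 14 negative and 0 at that level. Without the libraries low in mt-Rnr2 the medians were -0.73 for mitosis and 0.05 for S phase genes. In young mice, 0 of 38 members and 0 of 15939 genes (0%) were called in Young BAM15 relative to Young CTRL, while DESeq2 called Cdk1, with 1.01% of all genes, and limma-voom called Ccne2, Cdk1, Cenpf and Prc1, with 4.26% of all genes. The mitosis median was -0.51 against 0.03 over all genes, with 23 of 24 negative and 2 lower at an unadjusted p under 0.05, where 6.88% of all genes were lower. The S phase median was -0.03, with 2 of 14 higher and 1 lower at that level, where 6.18% of all genes were higher. Without the 2 Krt14 libraries, both Young CTRL, the mitosis median was -0.38, with 19 of 24 negative, and the S phase median 0.0025. Without the libraries low in mt-Rnr2 the medians were -0.49, with 21 of 24 negative, and 0.07.

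Cdk1 had the smallest p of the 38 members in both BAM15 comparisons, which share no mice. Cdk1 (chromosome 10, 69335146 to 69352938), the kinase that starts mitosis, stood at 9.53, 7.57, 6.13, 6.02 and 11.4 CPM in Aged BAM15 and ranged from 6.13 to 24.1 CPM in Aged CTRL (median 18.5). It ranged from 3.88 to 7.89 CPM in Young BAM15 (median 5.64) and from 9.72 to 24.8 CPM in Young CTRL (median 14.3). All Young BAM15 values lay below all Young CTRL values, whereas in aged mice Aged CTRL 1, at 6.13 CPM, lay within the Aged BAM15 range. The log2 change was -1.13 ± 0.30 in aged mice (SE, adjusted p = 0.25) and -1.35 ± 0.28 in young mice (SE, adjusted p = 0.18). The difference between these 2 changes was 0.22 ± 0.40 (SE, adjusted p = 0.94). With age alone, in Aged CTRL relative to Young CTRL, Cdk1 had a change of 0.22 ± 0.27 (SE, adjusted p = 0.94).

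Markers of lipid-associated macrophages, the scavenging macrophages of obese fat, were, like Cdk1, higher on average in both CTRL groups than in both BAM15 groups. All 9 markers were found, and their mean log2 CPM was 4.70 ± 0.57 (SD) in the 5 Aged BAM15 mice, 6.38 ± 0.65 (SD) in the 6 Aged CTRL mice, 4.72 ± 0.56 (SD) in the 6 Young BAM15 mice and 5.80 ± 0.31 (SD) in the 7 Young CTRL mice. Their summed level ran from 3074 to 13695 CPM in Aged BAM15 and from 4438 to 16912 CPM in Aged CTRL. It ran from 4323 to 11448 CPM in Young BAM15 and from 8052 to 26588 CPM in Young CTRL. A sum leans on the most abundant markers, and it ordered the CTRL groups the other way. It averaged 16203 CPM over the 7 Young CTRL mice against 11594 CPM over the 6 Aged CTRL mice. The averages for Aged BAM15 and Young BAM15 were 7960 and 7797 CPM. The sum is therefore not read here as an amount of these macrophages. Spp1 alone was at 0 in some library, in Aged CTRL. The part of these macrophages in the Cdk1 values was not tested.

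The other members named in the BAM15 comparisons did not pass the test. Kif20a stood at 0.389, 0, 0.238, 0 and 0 CPM in Aged BAM15 and ranged from 0 to 2.93 CPM in Aged CTRL (median 1.59), and its fitted log2 change was -3.50 ± 1.09 (SE, adjusted p = 0.32), a value that rests on 10 counts in treated mice. Top2a had a log2 change of -0.98 ± 0.44 in aged mice (SE, adjusted p = 0.51) and of -0.38 ± 0.39 in young mice (SE, adjusted p = 0.72). Mki67 had a log2 change of -0.09 ± 0.47 in aged mice (SE, adjusted p = 0.98) and of -0.23 ± 0.43 in young mice (SE, adjusted p = 0.87). Cenpf stood at -0.86 ± 0.40 in young mice (SE, adjusted p = 0.36). Among S phase genes, Tyms stood at -0.66 ± 0.33 and Rrm2 at -0.93 ± 0.59 in aged mice (SE, adjusted p = 0.57 and 0.67). In young mice Cdt1, the licensing factor that loads the helicase, averaged 11.95 ± 8.35 CPM (SD) in the 6 Young BAM15 mice and 5.74 ± 3.36 CPM (SD) in the 7 Young CTRL mice, and its log2 change was 1.06 ± 0.45 (SE, adjusted p = 0.33). Mcm4 stood at 0.52 ± 0.24 in young mice (SE, adjusted p = 0.36). Pcna and Mcm5 had changes of -0.05 ± 0.22 and -0.28 ± 0.42 in aged mice and of -0.18 ± 0.20 and 0.27 ± 0.38 in young mice (SE), with adjusted p from 0.74 to 0.97.

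Age was compared in untreated mice. In Aged CTRL relative to Young CTRL, 0 of 38 members were called with edgeR, where 0.207% of all genes were called, while DESeq2 called Cenpf and Mki67, with 1.12% of all genes, and limma-voom called Cenpf, Top2a and Mki67, with 0.922%. The mitosis median was -0.81 against -0.04 over all genes, with 22 of 24 negative and 6 lower at an unadjusted p under 0.05, where 3.86% of all genes were. The S phase median was -0.29, with 11 of 14 negative and 0 at that level. Without the libraries low in mt-Rnr2 the medians were -0.80 for mitosis and -0.20 for S phase genes, and without the Krt14 libraries -0.73 and -0.27. Mki67 averaged 3.49 ± 1.86 CPM (SD) in the 6 Aged CTRL mice and 10.7 ± 5.42 CPM (SD) in the 7 Young CTRL mice, and the log2 change was -1.62 ± 0.45 (SE, adjusted p = 0.16). It was called without the libraries low in mt-Rnr2, at -1.52 (adjusted p = 0.039). No member was called without the Krt14 libraries, or without both sets of libraries. Cenpf averaged 4.48 ± 2.74 CPM (SD) in the 6 Aged CTRL mice and 12.9 ± 5.12 CPM (SD) in the 7 Young CTRL mice, and its log2 change was -1.52 ± 0.41 (SE, adjusted p = 0.15). Top2a had a change of -0.82 ± 0.40 (SE, adjusted p = 0.60). Of the S phase genes, the log2 change was -0.49 ± 0.25 for Rrm1, -0.77 ± 0.42 for Ccne2, -0.44 ± 0.38 for Mcm5 and -0.05 ± 0.20 for Pcna (SE), with adjusted p from 0.62 to 0.99.

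Age was also compared among treated mice. In Aged BAM15 relative to Young BAM15, 0 of 38 members were called with edgeR, where 0.427% of all genes were called, while DESeq2 called Cenpf, Kif23 and Top2a, with 2.32% of all genes, and limma-voom called Kif23 and Top2a, with 1.88%. The mitosis median was -1.10 against -0.10 over all genes, with 23 of 24 negative and 13 lower at an unadjusted p under 0.05, where 5.78% of all genes were. The S phase median was -0.60, with 11 of 14 negative and 2 lower at that level. Without the libraries low in mt-Rnr2 the medians were -0.97 for mitosis and -0.26 for S phase genes. With B cell markers as a covariate they were -0.96 and -0.21, and with both changes -0.78 and -0.089. The B cell markers averaged 2.43 log2 CPM in Aged BAM15 and 4.72 in Young BAM15, so the covariate cannot be fully told apart from age here. The log2 change was -1.74 ± 0.45 for Cenpf (SE, adjusted p = 0.10), -1.48 ± 0.42 for Kif23 (SE, adjusted p = 0.13), -1.41 ± 0.44 for Top2a (SE, adjusted p = 0.16) and -1.48 ± 0.49 for Mki67 (SE, adjusted p = 0.17). For Mki67 and Cenpf every treated aged mouse lay below every treated young mouse. Among S phase genes Mcm5 stood at -0.99 ± 0.42 and Tyms at -0.71 ± 0.33 on the log2 scale (SE, adjusted p = 0.26 and 0.30), and Pcna at 0.08 ± 0.22 (SE, adjusted p = 0.85).

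**Figure D4:**
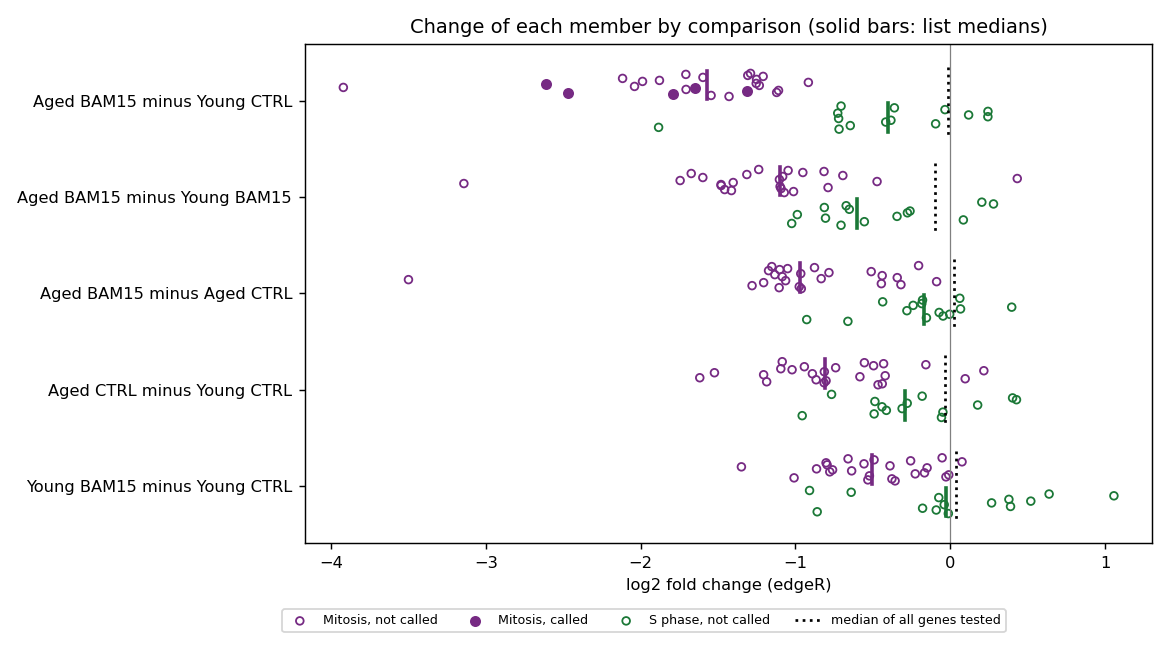
Log2 fold change of each member (1 point per gene) in the 5 comparisons between groups, with mitosis genes in purple and S phase genes in green, filled where called, solid bars at the median of each class and dotted lines at the median of all genes tested. The mitosis median lies left of the S phase median in every comparison, from -0.51 in Young BAM15 minus Young CTRL to -1.57 in Aged BAM15 minus Young CTRL.

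These comparisons share groups, so their values are not independent of each other. Whether the effect of BAM15 differed between the ages was tested as the change in aged mice minus the change in young mice. For this difference 0 of 38 members and 0 of 15939 genes (0%) were called with edgeR, and DESeq2 and limma-voom called 0 members, with 0.0125% and 0% of all genes. None of the 38 members was lower at an unadjusted p under 0.05, where 1.85% of all genes were. The smallest p belonged to Kif20a at -2.72 ± 1.33 and Ndc80, a core kinetochore protein, at -1.20 ± 0.72 among mitosis genes, and to Cdt1 at -1.24 ± 0.66 and Ccne2 at 0.97 ± 0.62 among S phase genes (SE, adjusted p = 0.90 for each).

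Other genes of the cell cycle, from lists drawn up for comparison, gave 4 calls, in 3 genes. Of 29 further mitosis genes tested, 2 fell in Aged BAM15 relative to Young CTRL, with a median log2 change of -1.28 and 26 of 29 negative, and 1 fell relative to Young BAM15. Over all genes, 0.514% were called lower relative to Young CTRL, and 0.427% were called in either direction relative to Young BAM15. Kif15, a spindle motor that can stand in for Kif11, averaged 0.805 ± 0.467 CPM (SD) in the 5 Aged BAM15 mice, 2.42 ± 0.606 CPM (SD) in the 6 Aged CTRL mice, 4.57 ± 1.87 CPM (SD) in the 6 Young BAM15 mice and 4.84 ± 3.07 CPM (SD) in the 7 Young CTRL mice. Its highest Aged BAM15 value, 1.30 CPM, lay below the lowest of every other group, and its log2 change was -2.59 ± 0.53 relative to Young CTRL (SE, adjusted p = 0.016) and -2.50 ± 0.53 relative to Young BAM15 (SE, adjusted p = 0.031). Cdca3, which promotes entry into mitosis, averaged 1.49 ± 0.519 CPM (SD) in the 5 Aged BAM15 mice and 5.46 ± 3.53 CPM (SD) in the 7 Young CTRL mice, and its log2 change was -1.87 ± 0.45 (SE, adjusted p = 0.039). Of 7 inhibitors of cyclin-dependent kinases, 1 rose in Aged BAM15 relative to Young CTRL, where 1.29% of all genes were called in either direction. Cdkn1c, the inhibitor p57, averaged 49.3 ± 4.90 CPM (SD) in the 5 Aged BAM15 mice, 27.2 ± 14.5 CPM (SD) in the 6 Aged CTRL mice, 34.1 ± 8.63 CPM (SD) in the 6 Young BAM15 mice and 21.4 ± 8.05 CPM (SD) in the 7 Young CTRL mice. Aged BAM15 and Young CTRL did not overlap for Cdkn1c, and its change was 1.20 ± 0.29 (SE, adjusted p = 0.043). Cdkn1a, the inhibitor p21, named here after its values were seen, lay the other way without passing the test. It averaged 43.8 ± 21.4 CPM (SD) in the 5 Aged BAM15 mice and 176 ± 48.0 CPM (SD) in the 7 Young CTRL mice, and its change was -2.01 ± 0.52 (SE, adjusted p = 0.054). Of 7 cyclins and kinases of the phase before replication, 16 genes of the RB, E2F and DREAM complexes, and 24 further replication genes, 0 were called in any comparison. The share called over all genes was at most 1.29% in any comparison, so lists of this size could hold 0 calls at that share. The 24 further replication genes had a median of -0.33 in Aged BAM15 relative to Young CTRL, with 16 of 24 negative.

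Within groups, the members varied together only in part. The following are Spearman correlations over the 24 libraries of the deviations from the group means in log2 CPM, which share the same libraries and scaling factors. The median over pairs of genes was 0.23 among S phase genes, 0.25 among mitosis genes and 0.25 between the classes. Against the mean of the other mitosis genes, Cdc20 stood at 0.77, Mki67 at 0.71, Prc1 at 0.67 and Cenpe at 0.66, while Cdk1 stood at 0.22 and Ccnb1 at 0.13. The S phase genes Mcm6, Mcm5 and Rrm1 followed that mean at 0.84, 0.78 and 0.76, and Pcna and Cdc45 did not, at 0.09 and -0.19. The 5 genes other than the members most like the mitosis mean were Tmc6 at 0.83, Cdk6, one of the kinases of the phase before replication, at 0.83, Gm38248 and Atad2 at 0.81, and Pms2 at 0.80.

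Markers of lymphocytes, which divide and are abundant in the lymph node lying in this depot, differed widely between libraries of each group, and on average between groups. All 12 B cell markers were found, with a summed level of 92.4 to 1156 CPM in Aged BAM15, 197 to 952 CPM in Aged CTRL, 335 to 2382 CPM in Young BAM15 and 603 to 1252 CPM in Young CTRL, and the defining marker Cd79a was at 0 in some library of every group. The 9 T cell markers summed to 3.96 to 158 CPM in Aged BAM15, 7.55 to 50.3 CPM in Aged CTRL, 6.14 to 452 CPM in Young BAM15 and 4.59 to 159 CPM in Young CTRL. Richest and poorest libraries were ranked below by averaging log2 CPM over the 12 B cell markers, not by the sum. By the sum, Aged BAM15 2 (1156 CPM) and Young CTRL 5 (1252 CPM) were the richest of their groups. Aged CTRL 6 (197 CPM) and Young CTRL 7 (603 CPM) were then the poorest of theirs. By the log2 average, in 3 of the 4 groups the library richest in B cell markers had a higher mean log2 CPM of mitosis genes than the poorest. That mean was 1.11 in Aged BAM15 4, the richest of its group, and -0.28 in Aged BAM15 5, the poorest. It was 2.20 in Young BAM15 5 and 1.35 in Young BAM15 1, and 3.06 in Young CTRL 1 and 2.30 in Young CTRL 3. In Aged CTRL it was lower in the richest, at 0.95 in Aged CTRL 2 and 2.18 in Aged CTRL 4. Only the end libraries of each group are compared here. Among them, Aged BAM15 5 and Aged CTRL 2 are low in mt-Rnr2, and Young CTRL 1 is the highest in Krt14. With B cell markers as a covariate the mitosis median in Aged BAM15 relative to Young CTRL was -1.72. Young BAM15 5 and 6, the libraries richest in B cell markers, held 24.9 and 18.2 CPM of Cdt1, the highest of the 24. In young mice the log2 change of Cdt1 was 1.06 in the main fit and ran from 0.71 to 1.33 when 1 library was left out. With the covariate and without the libraries low in mt-Rnr2 it was -0.05. That fit made both changes at once and was not among the planned fits. The part of B cells in the Cdt1 values was not tested.

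**Figure D5:**
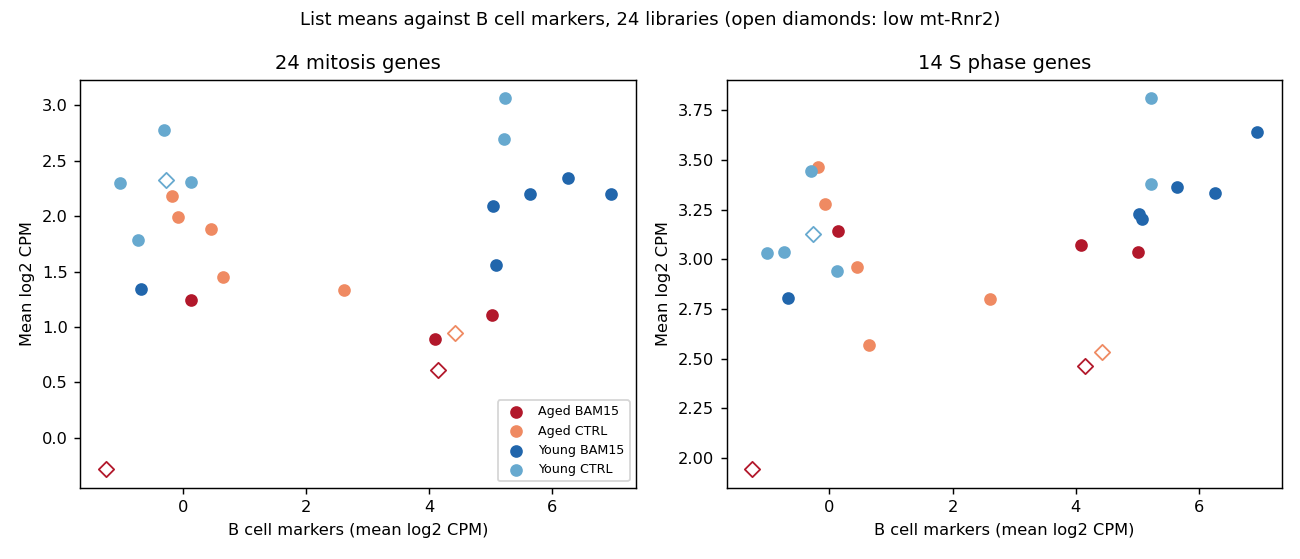
Mean log2 CPM of the 24 mitosis genes (left) and of the 14 S phase genes (right) against the mean log2 CPM of 12 B cell markers, with 1 point per library, coloured by group, and open diamonds for libraries low in mt-Rnr2. Libraries fall into those with few and those with many B cell transcripts, and Aged BAM15 points lie low for mitosis genes on both sides.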

How the data were processed

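Each library came from 1 mouse, by its ID label, so p-values measure the spread between mice. The authors deposited whole-number counts per Ensembl gene, made from Lexogen QuantSeq libraries per the labels, and a second table of signal values, which are those counts divided by 1 size factor per library (largest deviation 6.52e-09 counts). The signal table gave gene names only. Per the submitters' processing notes, R 3.4.3, DESeq2 1.18.1 and the build GRCm38 were used; no source used here gives the aligner or counter.

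Counts were fitted with edgeR 4.0.16 in R 4.3.3 (quasi-likelihood F-test, all 24 libraries, a term for group, trimmed mean of M values factors, filterByExpr). Benjamini-Hochberg adjustment ran over all 15939 genes, and genes were called at an adjusted p under 0.05. SE is the absolute log2 change over the square root of F. CPM uses those factors, and log2 CPM a prior count of 2. Alternatives included DESeq2 1.42.0 and limma-voom (limma 3.58.1).

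Named genes were, per comparison and class, up to 4 called members or the 2 with the smallest p, plus Mki67, Top2a, Pcna and Mcm5; Nusap1, and members given without this rule, were named after their values were seen. Members and lists were chosen with earlier results of these data known. The fit was tested on simulated data. Replicate numbers only name mice: deviations of same-numbered libraries correlated with a median r of -0.04 over 33 pairs. Within groups, counts of no 2 libraries agreed within sampling noise (chi-square per gene at least 18). Positions are from GENCODE M21, by which 9 members overlap another counted gene and 4 have a pseudogene named after them.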

Additional observations from a re-analysis of the deposited data

Results flagged for a closer look

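Single libraries lay far from the rest of their group, by Dixon's criterion at the 95% level, for 10 of the 76 combinations looked at of a group with a named gene or the sum of a class, where chance gives about 1 in 20. Each value is in CPM. Among S phase genes, Ccne2 stood at 1.824 in Young CTRL 4, below 6.15 in the next library, and Pcna at 13.3 in Aged CTRL 6, below 21.52. Mcm5 reached 16.87 in Young BAM15 5, above 9.299, and 15.92 in Young CTRL 1, above 7.509. Tyms reached 12.56 in Aged CTRL 4, above 8.273, and Rrm2 reached 17.57 in Young CTRL 1, above 6.096. Among mitosis genes, Mki67 stood at 0.9799 in Aged BAM15 5, below 3.632, and Cdk1 reached 24.8 in Young CTRL 4, above 15.47. Ndc80 reached 2.479 in Aged BAM15 2, above 1.071, and stood at 1.041 in Young CTRL 6, below 2.444. Of these 10 values, 4 are from libraries low in mt-Rnr2 and 2 from the library highest in Krt14.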

How the results depend on the processing

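The number of members called depended on the tool and on single libraries. In Aged BAM15 relative to Young CTRL, where 5 were called, the count was 14 with DESeq2, 19 with limma-voom, 3 without the filter, 2 with the compared groups alone, 2 without the libraries low in mt-Rnr2, and 1 without the Krt14 libraries or without both sets. Leaving out 1 library at a time gave 1 (without Aged BAM15 2, 3 or 5, or Young CTRL 2) to 9 (without Aged CTRL 2), with 3 or fewer in 17 of 24 fits. The calls over all genes moved too, from 46 of 16285 (without Aged BAM15 5) to 648 of 15870 (without Aged CTRL 2). Cenpf was called in all 36 of these other fits, Prc1 in 28, Top2a in 16 and Kif23 and Nusap1 in 11 each. With the replicate number as a block, 1 member was called; the numbers do not pair the mice. In the other comparisons, where 0 were called, DESeq2 and limma-voom gave 2 and 3 in Aged CTRL relative to Young CTRL, 2 and 1 in Aged BAM15 relative to Aged CTRL, 1 and 4 in Young BAM15 relative to Young CTRL, and 3 and 2 in Aged BAM15 relative to Young BAM15. Without the libraries low in mt-Rnr2, with or without the B cell covariate, 1 was called in Aged CTRL relative to Young CTRL, and leaving out 1 library gave 0 to 1 in Aged BAM15 relative to Young BAM15 (Kif23 without Aged BAM15 4, Cenpf without Aged CTRL 2). Fits without several libraries, and the B cell covariate with such a fit, were partly chosen after seeing the data.

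Over all genes in Aged BAM15 relative to Young CTRL, 205 calls became 757 with DESeq2, 1633 with limma-voom, 29 with the compared groups alone, 17 with the replicate block, and 105, 86 and 72 without the mt-Rnr2, the Krt14 and both sets of libraries. In Aged CTRL relative to Young CTRL, 33 became 4 to 179, in Aged BAM15 relative to Young BAM15 68 became 13 to 370, in Aged BAM15 relative to Aged CTRL 0 became up to 964 and in Young BAM15 relative to Young CTRL up to 679.

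The S phase median in Aged BAM15 relative to Young BAM15, -0.60, was -0.21 with the B cell covariate and -0.089 when the libraries low in mt-Rnr2 were also left out. Some log2 changes, most of them small, turned sign, and the cause was not tested. In Aged CTRL relative to Young CTRL, Mcm5 was 0.082 without both sets of libraries, and Pcna ran from -0.12 to 0.062 over single libraries left out. In Aged BAM15 relative to Aged CTRL, Mki67 was 0.0039 with limma-voom and ran from -0.32 to 0.15, and Pcna from -0.19 to 0.088. In Young BAM15 relative to Young CTRL, Cdt1 had the largest positive change of the members in the main fit, 1.06. The covariate without the libraries low in mt-Rnr2 gave -0.046 for Cdt1 and -0.13 for Mcm5. Over single libraries left out, Cdt1 ran from 0.71 to 1.33 and Mcm5 from -0.020 to 0.58. In Aged BAM15 relative to Young BAM15, Pcna was -0.18 with limma-voom, -0.23 without the libraries low in mt-Rnr2, -0.23 without both sets, -0.20 with the covariate, and ran from -0.018 to 0.22; relative to Young CTRL it ran from -0.23 to 0.039.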
